A study of Mus musculus with 12 samples.

Results

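The genes described here are the 5 ligands of the mouse monocyte chemoattractant cluster, Ccl2, Ccl7, Ccl11, Ccl12 and Ccl8, and Ccr2, the receptor through which several of them act. They were found by matching the Ensembl identifiers of the count table to these 6 gene symbols in the GENCODE M21 annotation, and all 6 were present among the 52636 genes of the table. All 6 also passed the filter on low counts, which left 17993 genes for testing.

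RNA was sequenced from whole skin of female BALB/c mice aged 6 to 8 weeks, in 12 libraries, with 3 libraries in each of 4 groups. Control mice received vehicle in the skin. Control + RAPA mice received vehicle in the skin and were given rapamycin (RAPA), which blocks the growth-regulating kinase complex mTORC1. LL37 mice received skin injections of LL37, the active peptide of the human antimicrobial protein cathelicidin, which produces a rosacea-like inflammation. LL37 + RAPA mice received both LL37 and rapamycin. All groups shared the strain, sex and age range, and the study describes LL37 or vehicle injections 2 times a day for 2 days. Its methods give rapamycin to BALB/c mice by intraperitoneal injection at 4 mg per kg per day. They place a rapamycin ointment on C57BL/6 mice, which a scheme of the study shows on BALB/c mice instead, and no route is named for the sequenced mice. The study calls the 3 samples of a group independent biological samples, and the labels name neither the animals nor a batch.

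CC chemokines are small secreted proteins that draw leukocytes out of the blood and into tissue along a gradient. CCL2, CCL7 and CCL12 bind CCR2 on inflammatory monocytes, which need this receptor to leave the bone marrow and enter inflamed tissue. CCL11, also called eotaxin, acts on eosinophils through another receptor, CCR3, and mouse CCL8 acts mainly through CCR8.

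Depth was between 15734559 and 23271784 read counts per library. Levels are given as CPM, read counts scaled to a common library size with edgeR's TMM factors, and 3 counts, taken as the floor of detection, correspond to 0.123 to 0.184 CPM. Keratinocyte markers, which check the skin label, summed to between 26002 and 42084 CPM in every library. Skeletal muscle markers, from the muscle sheet under mouse skin, summed to between 21883 and 43769 CPM in the control and control + RAPA libraries, to between 14.5 and 512 CPM in LL37 libraries and to between 2001 and 4453 CPM in LL37 + RAPA libraries, and the part of this difference in the results was not tested. LL37 replicate 3 stood apart from the other LL37 libraries on the first principal component, which held 68.3% of the variance (64.4 against 129 and 133), and counts of called genes are also given without it, in fits chosen after its position was known. Because these are bulk samples of whole skin, fewer cells of a type and less RNA per cell cannot be told apart.

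The 5 ligand genes lie together on the forward strand of chromosome 11 within 81.2 kb of the GRCm38 build. Ccl2 (ENSMUSG00000035385) is at chr11:82035571-82037453, Ccl7 (ENSMUSG00000035373) at chr11:82045712-82047525 and Ccl11 (ENSMUSG00000020676) at chr11:82057823-82062955. After a gap of 38.9 kb, the widest among these 5 genes, follow Ccl12 (ENSMUSG00000035352) at chr11:82101845-82103400 and Ccl8 (ENSMUSG00000009185) at chr11:82115185-82116799. Ccr2 (ENSMUSG00000049103) is on another chromosome, at chr9:124101950-124113557. Coding sequences of the ligands were 67.7% to 72.4% identical in pairs over the aligned bases, and no pair shared an unbroken run of more than 21 bases. Gm17268, annotated on the other strand across Ccl2, had 0 counts in every library and shares no exon base with it.

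**Figure D1:**
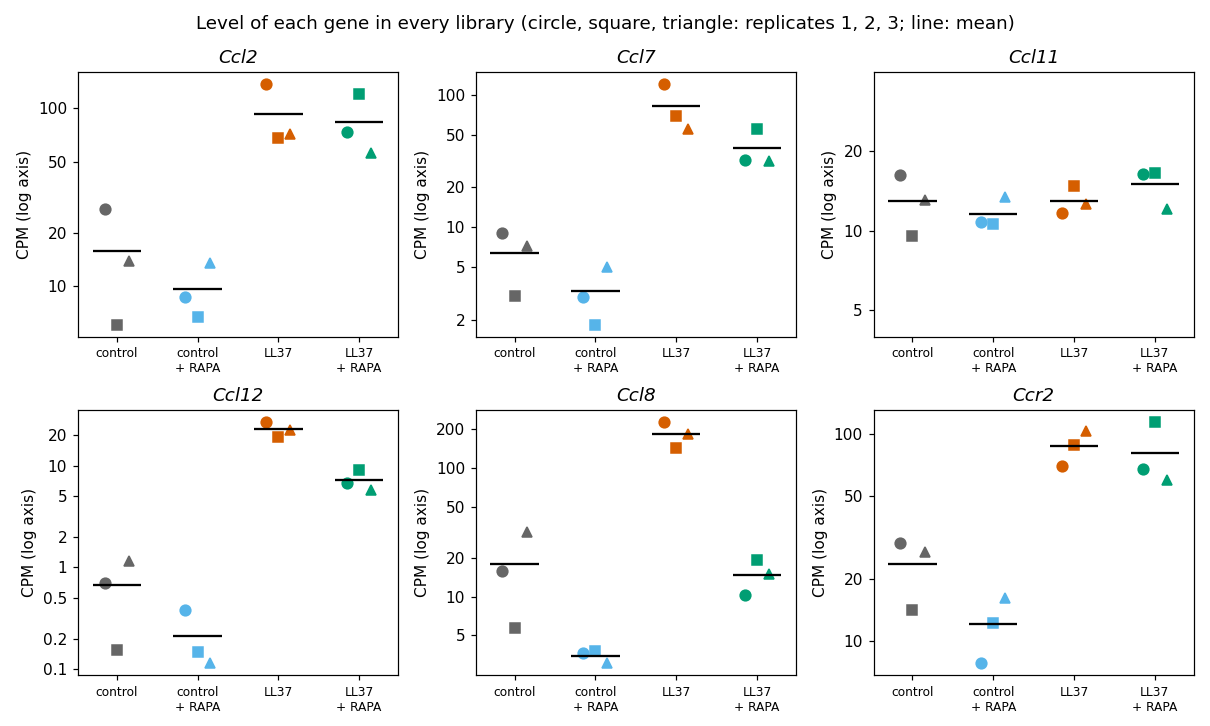
Level of each gene in CPM on a log axis, with 1 point per library and a line at the mean of each group of 3. For Ccl2 and Ccr2 the LL37 + RAPA libraries overlapped the LL37 libraries, Ccl8 was between 10.2 and 19.2 CPM in LL37 + RAPA against 142 to 226 CPM in LL37, and Ccl11 stayed between 9.54 and 16.6 CPM in all 12 libraries.

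The comparison of LL37 with control skin asked which of these genes respond to the peptide. In LL37 skin, 4 of the 5 ligand genes and the receptor gene were higher than in control skin, from 3.70-fold for Ccr2 to 33.6-fold for Ccl12, while Ccl11 was at the control level. A gene is called here at a Benjamini-Hochberg adjusted p below 0.05 in edgeR's quasi-likelihood test over all tested genes together with an absolute log2 fold change above 1. By this rule 5 of the 6 genes were called higher, where 8.73% of all tested genes were, and 5 had LL37 libraries that all lay above the control libraries, where 49.7% of all genes had groups that did not overlap in either direction. Among the called genes, Ccl12 passed the filter on low counts through its levels in the LL37-injected groups, so its call adds no support. The median log2 fold change was 2.96 over the 6 genes and -0.0049 over all tested genes. Without LL37 replicate 3 the count was also 5, where 10.5% of all tested genes were called higher.

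Ccl2, the main monocyte attractant, was at 27.2, 6.05 and 13.9 CPM in the control libraries and at 138, 68.6 and 72.2 CPM in the LL37 libraries. Ccl7, a second CCR2 ligand, was at 8.95, 3.02 and 7.22 CPM in control and at 121, 68.8 and 55.2 CPM in LL37. The lowest LL37 library lay above the highest control library for both genes, and the control libraries were themselves widely spread. The log2 fold change was 2.56 with a standard error (SE) of 0.50 for Ccl2 (edgeR adjusted p = 0.00175) and 3.68 with an SE of 0.46 for Ccl7 (edgeR adjusted p = 0.000104).

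Ccl12, the mouse CCR2 ligand with no direct human counterpart, was close to the floor in control skin, at 0.701, 0.154 and 1.159 CPM, and reached 26.7, 19.0 and 22.3 CPM in LL37 skin. Its control values rest on 3 to 22 counts per library, so the size of its fold change is less certain than its direction. Its log2 fold change of 5.07 (SE 0.45, edgeR adjusted p = 9.38e-06) was the largest among the 6 genes. Because its levels in the LL37 and LL37 + RAPA groups carried it past the filter on low counts, this call adds no support. Ccl8 was at 15.9, 5.74 and 32.0 CPM in control skin and at 226, 142 and 182 CPM in LL37 skin. Again no LL37 library reached down to the control range, and the log2 fold change was 3.36 (SE 0.47, edgeR adjusted p = 0.000224).

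Ccl11 was at 16.3, 9.54 and 13.1 CPM in control and at 11.6, 14.7 and 12.6 CPM in LL37, with every LL37 value inside the control range. Its difference was 0.0014 on the log2 scale, with a 95% interval from -0.44 to 0.44 (edgeR adjusted p = 0.996), so a change of the size seen in the other ligands lies outside its interval. The sign of so small a difference turned with the scaling and with single libraries left out. Ccr2 was at 29.9, 14.0 and 26.8 CPM in control and at 69.8, 88.1 and 104 CPM in LL37. The groups did not overlap, and the log2 fold change was 1.89 (SE 0.34, edgeR adjusted p = 0.000991).

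The comparison of LL37 + RAPA with LL37 skin asked which of these changes rapamycin alters. Ccl8 was 12.3-fold lower and Ccl12 3.14-fold lower in LL37 + RAPA skin than in LL37 skin, Ccl2 and Ccr2 were nearly at the LL37 level, and Ccl7 lay between. By the same rule 2 of the 6 genes were called lower, where 4.33% of all tested genes were called lower, and 3 of the 6 had libraries that did not overlap, where 38.3% of all genes did. Without LL37 replicate 3, 3 genes were called lower, with Ccl7 added, where 5.94% of all tested genes were.

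Ccl8 was at 10.2, 19.2 and 15.1 CPM in the LL37 + RAPA libraries, all far below the LL37 range of 142 to 226 CPM. Its log2 fold change was -3.63 (SE 0.48, edgeR adjusted p = 0.00145), and leaving out any single library gave -3.85 to -3.42. Ccl12 was at 6.74, 9.09 and 5.77 CPM in LL37 + RAPA, again below every LL37 library. It fell by 1.65 on the log2 scale (SE 0.35, edgeR adjusted p = 0.00771).

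These are neighbours at one end of the 5 ligand genes described here, and they are the pair called lower with rapamycin. Genes beyond these 5 were not placed on the chromosome. The 150 bases before their start sites are shown as a description, from the RefSeq promoter table for GRCm38.p6, which held an entry for 3 of the 6 genes (Ccl8, Ccl12 and Ccr2). It held none for Ccl2, Ccl7 or Ccl11, so features of these promoters could not be compared with those of the other ligand genes. Capitals mark the TATA box letters TATAAA, which set the start of transcription in many strongly induced genes. Ccl12 is at chr11:82101695-82101844 and Ccl8 at chr11:82115035-82115184, both on the forward strand.
Ccl12: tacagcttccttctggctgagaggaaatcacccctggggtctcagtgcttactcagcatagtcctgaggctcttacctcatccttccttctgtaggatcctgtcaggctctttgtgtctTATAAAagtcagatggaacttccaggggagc
Ccl8: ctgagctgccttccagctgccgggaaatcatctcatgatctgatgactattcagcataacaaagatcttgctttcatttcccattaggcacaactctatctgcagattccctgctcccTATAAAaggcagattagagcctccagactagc
The first T of TATAAA stands 31 bases before the start site of Ccl12 and 32 bases before that of Ccl8. These letters were found on either strand in 13.6% of all 32544 promoters of the same 300 bases (250 before and 50 after the start). Both stretches matched at 95 of 143 aligned bases, an identity of 66.4%, and no other pair of promoters was aligned for reference. The search on both strands also covered the NF-κB site, which 8.49% of all promoters hold, TGANTCA for AP-1 (7.79%), TTCNNNGAA for STAT factors (8.33%), the wider STAT6-type palindrome (6.98%) and the core of the interferon response element (3.45%). None of these motifs was found in the 300 bases of Ccl8, Ccl12 or Ccr2, which says only that they are absent from this window.

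Ccl7 was at 32.2, 55.2 and 31.8 CPM in LL37 + RAPA and at 121, 68.8 and 55.2 CPM in LL37. The groups did not overlap, but only just, since the highest LL37 + RAPA library and the lowest LL37 library both round to 55.2 CPM. Its log2 fold change of -1.04 had a 95% interval from -1.92 to -0.15 and missed the threshold (edgeR adjusted p = 0.0821). It passed with DESeq2 (adjusted p = 0.0454) and in edgeR without LL37 replicate 3 (adjusted p = 0.0305), but was -0.95 with replicate number as a block (adjusted p = 0.139) and -0.64 without LL37 replicate 1 (adjusted p = 0.331). Over all single libraries left out it ranged from -1.35 to -0.64.

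Ccl2 was at 73.5, 121 and 55.9 CPM in LL37 + RAPA, across the range of the LL37 libraries. Its difference was -0.15 on the log2 scale, with a 95% interval from -1.17 to 0.86 (edgeR adjusted p = 0.836), so a change of about 1 log2 unit in either direction could have been missed. Ccr2 was at 67.7, 114 and 59.96 CPM in LL37 + RAPA, and its libraries likewise spanned those of LL37. The difference was -0.11 with a 95% interval from -0.81 to 0.59 (edgeR adjusted p = 0.826). For both genes the sign turned when single libraries were left out, with ranges of -0.52 to 0.24 for Ccl2 and -0.45 to 0.06 for Ccr2. Ccl11 was at 16.4, 16.6 and 12.1 CPM in LL37 + RAPA, with overlapping libraries and a difference of 0.21 (95% interval -0.23 to 0.65, edgeR adjusted p = 0.467).

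**Figure D2:**
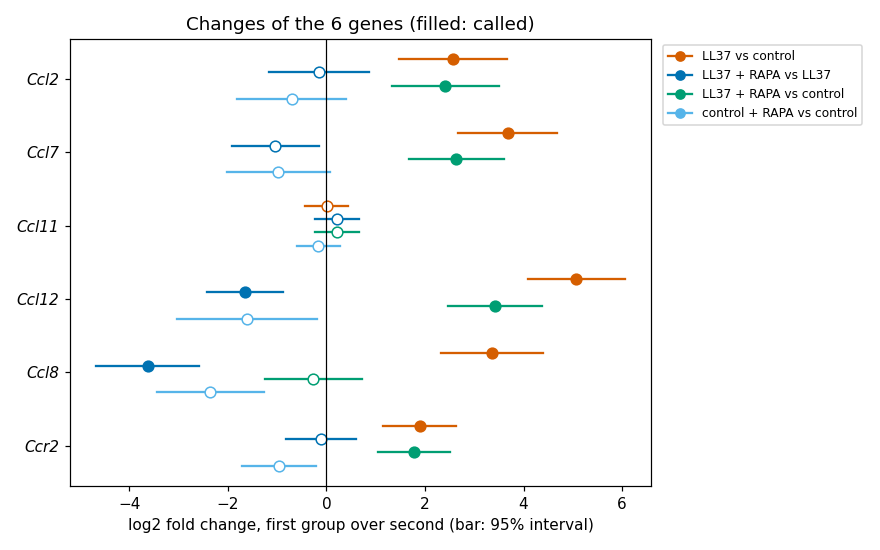
Log2 fold change of each gene in 4 comparisons, first group over second, with 95% intervals as bars and filled points for called changes. For LL37 + RAPA vs LL37, Ccl8 (-3.63) and Ccl12 (-1.65) are called and the intervals of Ccl2, Ccl11 and Ccr2 hold 0.

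Since an effect that passes in 1 gene and misses in another is not thereby different, the genes were also compared within each library. For every pair, the log2 ratio of read counts (with 0.5 added) was taken in each library and compared between LL37 and LL37 + RAPA with a two-sided exact permutation test. With 3 libraries against 3 such a test cannot give a p below 0.1, so it cannot reach 0.05. Of the 15 pairs, 12 had ratios that did not overlap between the groups, each with an exact p of 0.1 and a Benjamini-Hochberg value of 0.125 over the 15 pairs. The pairs share genes and are not independent. No share over other gene pairs was computed, and 38.3% of single genes did not overlap between these groups, so the count is a description.

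The log2 ratio of Ccl2 to Ccl8 was -0.72, -1.05 and -1.34 in the LL37 libraries and 2.84, 2.66 and 1.89 in the LL37 + RAPA libraries. Ccl8 counts thus exceeded Ccl2 counts in every LL37 library, and Ccl2 counts exceeded Ccl8 counts in every LL37 + RAPA library. The mean moved by 3.49 (exact permutation p = 0.1). Between the genes that rapamycin lowered, the log2 ratio of Ccl8 to Ccl12 moved from 3.003 ± 0.094 to 1.02 ± 0.39 (SD, n = 3), without overlap (exact permutation p = 0.1), with Ccl8 the lower relative to Ccl12 in every LL37 + RAPA library. For Ccl2 to Ccl12 the ratio moved by 1.51 and for Ccl2 to Ccl7 by 0.86, both without overlap and with an exact permutation p of 0.1.

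Only the 3 pairs formed by Ccl2, Ccr2 and Ccl11 had overlapping ratios. The log2 ratio of Ccl2 to Ccr2 averaged 0.03 in both groups, with an SD of 0.82 in LL37 and 0.12 in LL37 + RAPA (difference 0.0012, exact permutation p = 1). For Ccl2 to Ccl11 the difference was -0.35 (exact permutation p = 0.5) and for Ccl11 to Ccr2 0.36 (exact permutation p = 0.3). Ccl11, unlike the other genes of these pairs, had not been called higher with LL37.

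**Figure D3:**
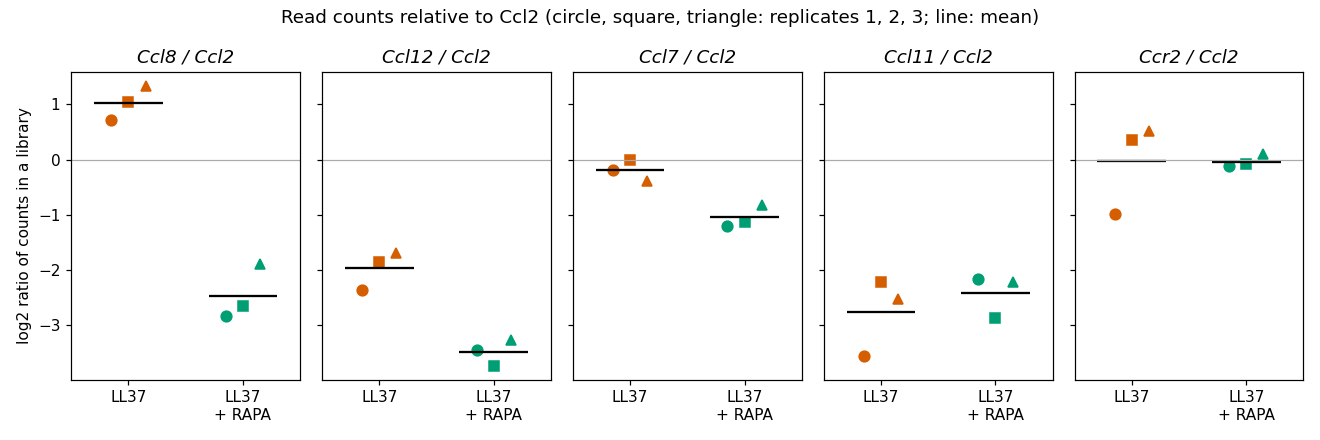
Log2 ratio of the read counts of 5 genes to those of Ccl2 in each LL37 and LL37 + RAPA library, with lines at the means of 3. Ccl8, Ccl12 and Ccl7 lie lower relative to Ccl2 in every LL37 + RAPA library than in any LL37 library, while Ccl11 and Ccr2 overlap.

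Set against control skin, LL37 + RAPA skin kept high levels of 4 genes. Ccl2 (log2 fold change 2.41, edgeR adjusted p = 0.00732), Ccl7 (2.64, adjusted p = 0.00209), Ccl12 (3.42, adjusted p = 0.000369) and Ccr2 (1.78, adjusted p = 0.00421) were called higher than in control, where 2.15% of all tested genes were. In all 4 the LL37 + RAPA libraries lay above the control libraries, and 36.4% of all genes had groups that did not overlap. Since Ccl12 passed the filter on low counts through the LL37-injected groups, its call adds no support. Ccl8 was not among the genes called higher. Its LL37 + RAPA libraries, at 10.2 to 19.2 CPM, lay within the control range of 5.74 to 32.0 CPM, with a log2 fold change of -0.26 and a 95% interval from -1.24 to 0.71 (edgeR adjusted p = 0.77). Ccl11 differed by 0.21 (edgeR adjusted p = 0.555).

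The share of the LL37 change that remained with rapamycin is the log2 fold change of LL37 + RAPA over control as a percentage of that of LL37 over control. Both use the same control libraries, so it is a description. It was 94.0% for Ccl2, 94.0% for Ccr2, 71.8% for Ccl7, 67.4% for Ccl12 and -7.86% for Ccl8. For Ccl11 it was not computed, since LL37 gave no called change.

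In skin without LL37, rapamycin gave 0 called genes among the 6, where 0.00% of all tested genes were called by edgeR. Over all genes 1556 had an unadjusted p below 0.05, and DESeq2 called 53. Ccl8 was at 3.63, 3.75 and 3.05 CPM in control + RAPA, below all 3 control libraries, and it was the only member whose libraries did not overlap, where 15.7% of all genes did. Its log2 fold change was -2.35 (SE 0.50, edgeR adjusted p = 0.287). The gene was called by DESeq2 (adjusted p = 0.000129), with a filter of 1 count in total (edgeR adjusted p = 0.037) and without control replicate 2 (edgeR adjusted p = 0.0141), the lowest control library for all 6 genes. Without control replicate 3, where Ccl8 was highest, its log2 fold change was -1.65 (edgeR adjusted p = 0.845), and single libraries left out gave -2.80 to -1.65.

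The other 5 had overlapping libraries. Ccr2 was at 7.81, 12.2 and 16.1 CPM in control + RAPA and differed by -0.97 (edgeR adjusted p = 0.489). Ccl2, at 8.62, 6.72 and 13.5 CPM, differed by -0.71 (adjusted p = 0.736), and Ccl7, at 2.98, 1.83 and 5.01 CPM, differed by -0.98 (adjusted p = 0.608). Ccl12, at 0.380, 0.148 and 0.115 CPM or 2 to 7 counts, differed by -1.61 (adjusted p = 0.536). Ccl11, at 10.8, 10.6 and 13.4 CPM, differed by -0.16 (adjusted p = 0.866). All 6 estimates were below 0, and none passed the threshold in edgeR.

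LL37 + RAPA skin was also compared with control + RAPA skin, so that both sides carried rapamycin. This comparison was added after the values had been seen. Against this baseline 5 of the 6 genes were called higher, where 4.07% of all tested genes were, and 41.3% of all genes had groups that did not overlap, as these 5 did. Ccl8 was 4.26-fold higher, with a log2 fold change of 2.09 (SE 0.50, edgeR adjusted p = 0.0128). Without LL37 + RAPA replicate 2 it was 1.86 and missed the threshold (edgeR adjusted p = 0.0525). Ccl8 in LL37 + RAPA skin was thus within the control range and above the control + RAPA range. The other called genes were Ccl2 (3.12, adjusted p = 0.00163), Ccl7 (3.61, adjusted p = 0.000398), Ccl12 (5.03, adjusted p = 8.73e-05) and Ccr2 (2.74, adjusted p = 0.000323), while Ccl11 differed by 0.38 (edgeR adjusted p = 0.235). Here too Ccl12 passed the filter on low counts through the LL37-injected groups, so its call adds no support.

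Whether rapamycin acted differently in LL37 and in control skin was tested as an interaction in the same edgeR fit. It was called for 0 of the 6 genes, where 2.38% of all tested genes were. Over all genes 4049 had an unadjusted p below 0.05, and DESeq2 called 1008. The interaction of Ccl8 was -1.27 on the log2 scale, with a 95% interval from -2.72 to 0.18 (edgeR adjusted p = 0.284). Its size moved with the control libraries, to -0.82 without control replicate 2 (adjusted p = 0.309) and to -1.97 without control replicate 3 (adjusted p = 0.0907). That of Ccr2 was 0.85, with an interval from -0.17 to 1.88 (adjusted p = 0.305). No member was called by DESeq2 or by unadjusted p either. The difference of Ccl8 under rapamycin in LL37 skin (-3.63) was therefore not shown to differ from that in control skin (-2.35).

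Compared per kb of exon length, the order of the genes differed between groups. In control skin Ccl8 came first at 34.9 ± 25.9 CPM per kb (SD, n = 3), followed by Ccl2 at 13.8, Ccl11 at 11.98, Ccl7 at 7.99, Ccr2 at 3.49 and Ccl12 at 1.25, and every pair of neighbours in this order overlapped. In LL37 skin Ccl8 stood alone at 359 ± 82.3 CPM per kb (SD, n = 3), with Ccl7 at 102 and Ccl2 at 81.5 overlapping each other, then Ccl12 at 42.2, and last Ccr2 at 12.9 and Ccl11 at 11.99, which overlapped. In LL37 + RAPA skin Ccl2 came first at 73.3 ± 29.5 CPM per kb (SD, n = 3), overlapping Ccl7 at 49.6, and Ccl8 followed at 29.0, below every Ccl7 library. The order was closed by Ccl11 at 13.9, Ccl12 at 13.4 and Ccr2 at 11.9, all overlapping. In control + RAPA skin it ran from Ccl11 at 10.7 through Ccl2 at 8.45, Ccl8 at 6.81, Ccl7 at 4.09 and Ccr2 at 1.78 to Ccl12 at 0.399, and only the last step was free of overlap.

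**Figure D4:**
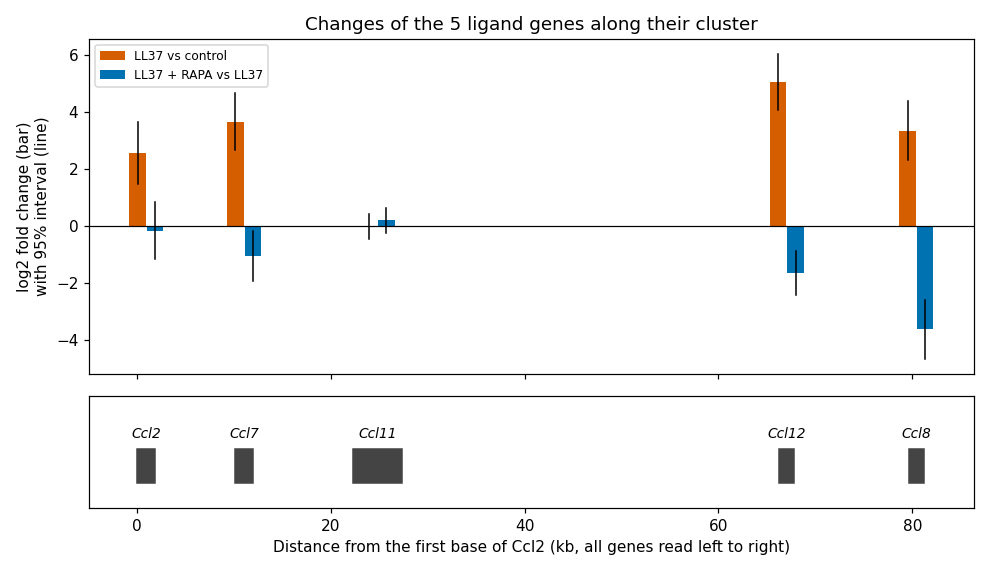
Log2 fold change of the 5 ligand genes, with 95% intervals as lines, for LL37 vs control and LL37 + RAPA vs LL37, placed by distance in kb from the first base of Ccl2, with the genes drawn to scale below. Ccl12 (-1.65) and Ccl8 (-3.63), the called decreases, are the last of the 5 ligand genes drawn, and Ccl11 shows no called change between them and Ccl7.

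Marker genes of the cells that could make or follow these chemokines moved with the groups. Of 9 recruited monocyte markers, 8 were called higher in LL37 than in control skin, among them Cd14 (log2 fold change 4.10) and Chil3 (3.67), and 2 were called lower in LL37 + RAPA than in LL37 skin, Plac8 (-2.39) and Fcgr1 (-2.20). Chil3 passed the filter on low counts through its levels in the LL37-injected groups, so its call over control adds no support. The summed level of the 9 markers was 162 to 222 CPM in control, 587 to 1679 CPM in LL37 and 395 to 898 CPM in LL37 + RAPA, with LL37 replicate 3 lowest of its group. Without that library 8 were called higher with LL37 and 4 lower with rapamycin, Cd14 and Thbs1 in addition. Of 14 resident macrophage markers, 5 were called higher in LL37 skin. With rapamycin added, Ms4a7 (-3.11), Adgre1 (-1.42) and Folr2 (-1.01) were called lower and Lyve1 (1.08) higher. The macrophage sum was 604 to 1111 CPM in control, 663 to 761 CPM in control + RAPA, 1858 to 2030 CPM in LL37 and 1222 to 1822 CPM in LL37 + RAPA, and control replicate 2 was the lowest library here as well. Without LL37 replicate 3, Ms4a7 and Adgre1 alone of this list were called in LL37 + RAPA vs LL37.

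Relative to the summed macrophage markers of the same library, Ccl8 was lower in every LL37 + RAPA library than in any LL37 library. The log2 ratio was -3.04, -3.78 and -3.48 in LL37 and -7.03, -6.57 and -6.34 in LL37 + RAPA, a difference of -3.21 that is close to the fold change without this reference (exact permutation p = 0.1, Benjamini-Hochberg 0.2 over the 6 genes). Ccl12 moved by -1.23 and Ccl11 by 0.64 relative to the same markers, both without overlap (exact permutation p = 0.1). Ccl7 moved by -0.57 (exact permutation p = 0.2), Ccl2 by 0.28 (exact permutation p = 0.6) and Ccr2 by 0.28 (exact permutation p = 0.3), all with overlap. These ratios take the list as a whole and do not tell which cells made the RNA. The list did not move as 1 in LL37 + RAPA vs LL37, with 3 of 14 markers called lower, 1 higher and 10 not called. Ms4a7, among the lower ones, changed by -3.11, near the -3.63 of Ccl8, so the ratio depends on the markers chosen.

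**Figure D5:**
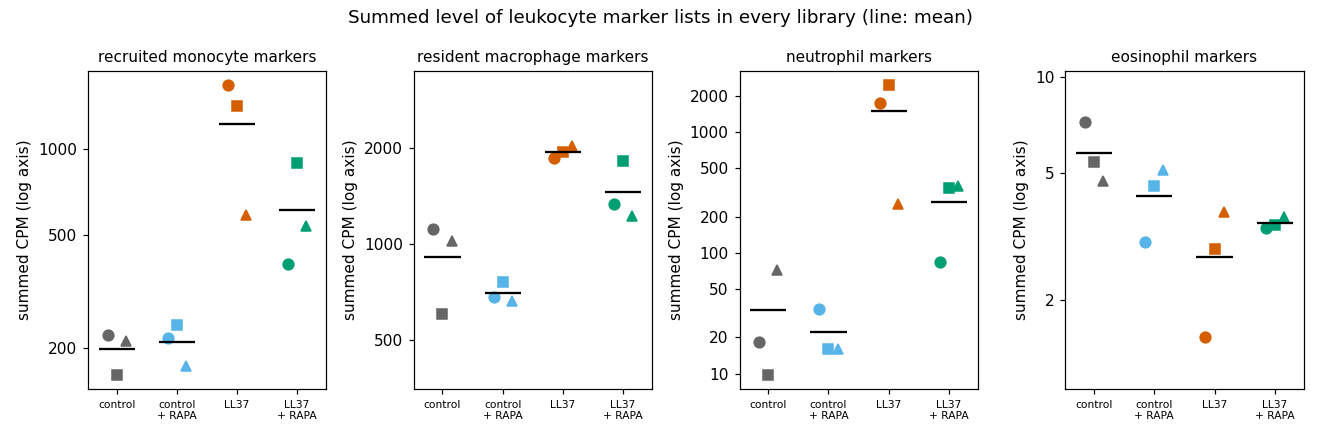
Summed CPM of 4 leukocyte marker lists in each library on a log axis, with lines at the means of 3. Monocyte, macrophage and neutrophil sums are higher in every LL37 library than in any control library, and the eosinophil sum stays between 1.52 and 7.23 CPM.

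Markers of eosinophils, the target of CCL11, were low in every group. Of the 7 on the list, Siglecf and Ear2 alone passed the filter, and the granule genes Epx, Ear1 and Ear6 did not exceed a mean of 0.054 CPM in any group. The summed level of the list was 1.52 to 3.77 CPM in LL37 and 4.74 to 7.23 CPM in control, but most of it was 1 gene, Ear2, with a mean of 5.05 of 5.80 CPM in control. Ear2 was called lower in LL37 than in control skin (log2 fold change -1.48, edgeR adjusted p = 0.021), while Siglecf differed by 0.85 (adjusted p = 0.369). Ccr3, the receptor of CCL11, was below the floor in control, at a mean of 0.018 CPM, and at 1.14 CPM in LL37, where it was called higher (edgeR adjusted p = 0.000617). Its LL37 level carried it past the filter on low counts, so this call adds no support.

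The other CC chemokines and their receptors were represented by 16 tested genes. In LL37 skin 9 were called higher than in control and 0 lower. Rapamycin lowered Ccl4 (-4.60), Ccl3 (-4.34), Ccrl2 (-3.65), Ccl5 (-3.23) and Ccr3 (-2.10), which with 1 gene raised, Ccl17 (1.45), left 10 that were not called. Ccr3 passed the filter through its LL37 level, so its calls in these counts add no support. LL37 replicate 3 was the lowest LL37 library for Ccl4 (64.4, 38.0 and 4.95 CPM), Ccl3 (78.3, 43.2 and 7.54 CPM), Ccl5 and Ccrl2, and for Ccrl2 its 3.86 CPM lay inside the LL37 + RAPA range of 2.66 to 4.54 CPM. Without it, 10 were called higher with LL37, and these 5 and Ccl22 were called lower with rapamycin while Ccl17 was not called. Against control, 6 of the 16 were called higher in LL37 + RAPA skin, with the largest changes in Ccr1 (3.19), a receptor shared by several CC chemokines, Ccl6 (2.30), Ccl17 (2.21) and Ccl9 (2.15). The median of the list in LL37 + RAPA vs LL37 was -0.52, against -0.60 for the 6 genes and 0.0042 for all tested genes.

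Genes linked to the regulation of this cluster (cytokines, the receptor gene Il4ra and transcription factors of the NF-κB, STAT and interferon routes) were the next list. Of 15 tested, 10 were called above control in LL37 skin, and 10 were called lower and 0 higher in LL37 + RAPA than in LL37 skin. The largest decreases were in Il1b (-4.22), Il6 (-3.38), Il10 (-3.36) and Tnf (-2.23), and in LL37 + RAPA skin 1 of the 15, Il4ra (1.35), was still called above control. Il10 had means of 0.23 CPM in control, 3.18 CPM in LL37 and 0.29 CPM in LL37 + RAPA. Its LL37 level carried it past the filter on low counts, so its calls add no support. LL37 replicate 3 was again low, with a sum over this list of 1080 CPM against 2468 and 2200 CPM. Its Il6 level of 1.51 CPM lay inside the LL37 + RAPA range of 1.19 to 3.56 CPM, and its Il1b level of 16.96 CPM was barely above the highest LL37 + RAPA library at 16.6 CPM. Without it the counts were 10 higher with LL37, 10 lower with rapamycin and 2 still above control, Il6 in addition. Il6 passed the filter on low counts through its levels in the LL37-injected groups, so its calls over control add no support. Ifng, Il13 and Csf2 did not pass the filter. Among 11 genes of monocyte survival and adhesion, 6 were called higher in LL37 skin and 2 lower with rapamycin, Itgal (-1.45) and Icam1 (-1.11), whose LL37 and LL37 + RAPA libraries overlapped through LL37 replicate 3. Without that library 6 were called higher and 1 lower (Il34) with LL37, and with rapamycin Itgal and Icam1 were called lower and Cx3cr1 and Il34 higher. Itgam, an integrin chain of myeloid cells, was still 2.22 log2 units above control in LL37 + RAPA skin (edgeR adjusted p = 0.00108).

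Across the 12 libraries, each gene had close partners. These correlations of log2 CPM describe patterns that the differences between the 4 groups largely set, and the libraries share depth and tissue makeup. The pattern most like that of Ccl2 was that of Ccl7 (Pearson r = 0.976, n = 12 libraries), followed by Dab2 (0.972) and Gm11427 (0.971). For Ccl7 the nearest were Fcgr3 (0.990), Cyba (0.985) and Nat8l (0.984), and for Ccr2 Ncf1 (0.991), Kcnab2 (0.989) and Emp3 (0.980). The nearest patterns to Ccl8 were those of Ms4a7 (0.982), Oas1b (0.976) and Ms4a4c (0.976), and to Ccl12 those of P2ry6 (0.978), Cpxm1 (0.978) and Treml2 (0.976). Ccl11 lay apart, with Gm38399 (0.925), Fstl1 (0.904) and 5730480H06Rik (0.879) nearest and an r of 0.223 with Ccl8. Ccl2 had an r of 0.729 with Ccl8 and 0.944 with Ccr2.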

How the data were processed

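Gene expression was measured by paired-end RNA sequencing of whole skin. The authors deposited raw read counts per Ensembl gene for each library, with replicates not pooled. The study's methods name HTSeq as the counter, while the submitters' processing notes list HISAT2 2.0.5, StringTie 1.3.3b, featureCounts 1.5.0-p3 and DESeq2 1.16.1 on mm10, and whether counting used strand is not given in the sources used here. Groups and replicate numbers came from the labels. Symbols were taken from GENCODE M21 (GRCm38), which named 52403 of 52636 genes.

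Counts were fitted in R 4.3.3 with edgeR 4.0.16 (TMM, filterByExpr by group, quasi-likelihood F-test, all 12 libraries, group as the only term), and p-values were adjusted by Benjamini-Hochberg over the 17993 tested genes. SEs were derived from the F statistic. Replicates differed by more than sampling noise (mean chi-square per gene 12.6 to 63.1), so none was counted as a duplicate. Scripts were tested on simulated data. The alternatives tried were other scalings, other filters on low counts, DESeq2 1.42.0, p-values without adjustment, fits restricted to the groups being compared, a block for replicate number and the removal of single libraries.

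The 6 genes and all gene lists were chosen with earlier results of these data known. All 6 genes are described; from each list the called genes with the largest change are named, at most 4 per list and comparison, and for each gene the 3 tested genes with the highest Pearson r. Some items that this rule would name are not reported here. The p-values weigh a difference between groups against the spread between these samples.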

Additional observations from a re-analysis of the deposited data

How the results depend on the processing

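Calls of the 6 genes in LL37 vs control and LL37 + RAPA vs control held under every alternative that could test them. Ccl12 could not be tested with a filter of 10 counts in every library, which left 1 called gene in LL37 + RAPA vs LL37. In control + RAPA vs control the number called was 1 with a filter of 1 count in total, 1 with DESeq2, 2 by unadjusted p-value and 0 to 1 with single libraries left out. Over all tested genes DESeq2 called 53, and single libraries left out gave 0 to 7. Counts over all genes are not given for the other settings, so the numbers called there are descriptions. The difference of Ccl11 in LL37 vs control was -0.0067 with upper-quartile scaling, -0.0033 with the filter of 1 count in total, -0.016 with only the compared groups, and -0.20 to 0.20 with single libraries left out. The interactions of Ccl7 and Ccl12 were 0.045 and 0.066 with library size only and 0.023 and 0.041 with upper-quartile scaling. Leaving out single libraries gave ranges of -0.37 to 0.40 and -0.67 to 0.66 for these interactions, -0.087 to 0.97 for that of Ccl2, -1.97 to -0.82 for that of Ccl8, -0.70 to 0.45 for Ccl8 in LL37 + RAPA vs control, -0.52 to 0.24 for Ccl2 and -0.45 to 0.064 for Ccr2 in LL37 + RAPA vs LL37, and -0.37 to 0.026 for Ccl11 in control + RAPA vs control. The remaining share of Ccl8 ranged from -23.8% (without control replicate 2) to 11.1% (without control replicate 3). For the ratio of Ccl2 to Ccl11 the difference ranged from -0.63 to 0.042 and for Ccl2 to Ccr2 from -0.28 to 0.47. The cause of these changes was not tested. Scaling by library size only moved the median of all genes by 0.13 in LL37 + RAPA vs control and 0.19 in LL37 + RAPA vs control + RAPA.

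Deviations of same-numbered libraries from their group means had correlations of -0.188 to 0.263, with 4 of 18 above 0.1. Differently numbered libraries were not correlated for reference, so these values cannot exclude a pairing. The labels name no pairing, and the numbers were not taken to pair the libraries. With the replicate number as a block, the counts called were 5 in LL37 vs control, 2 in LL37 + RAPA vs LL37, 4 in LL37 + RAPA vs control and 0 in control + RAPA vs control, as without it. The share of all tested genes called is not given for the blocked fits, so these counts are descriptions. Depth limits Ccl12 in skin without LL37, where it had 2 to 22 counts, and with 3 libraries per group the intervals of Ccl2 and Ccr2 under rapamycin remain wide.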

Other observations

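Markers of other cells were also measured. All 6 tested neutrophil markers were called higher in LL37 than in control skin, led by Retnlg (log2 fold change 6.52), S100a9 (5.80), Cxcr2 (5.69) and S100a8 (5.37). Retnlg and Mmp8 passed the filter on low counts through their levels in the LL37-injected groups, so their calls over control add no support. With rapamycin added, S100a9 (-3.31), S100a8 (-3.18) and Cxcr2 (-2.22) were called lower, and 3 of the 6 were still called above control. The summed level of the neutrophil list was 9.84 to 72.9 CPM in control, 252 to 2440 CPM in LL37 and 83.9 to 358 CPM in LL37 + RAPA. LL37 replicate 3, at the lowest LL37 sum, overlapped the LL37 + RAPA libraries for S100a8, S100a9 and Cxcr2. Without it 7 neutrophil markers were tested, of which 7 were called higher with LL37, 6 lower with rapamycin and 4 still above control. Ly6g, the marker added in these fits, had means of 0.018 CPM in control and 0.22 CPM in LL37 + RAPA. Its LL37 level (1.36 and 0.98 CPM in replicates 1 and 2) carried it past the filter on low counts, so its calls add no support.

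All 8 skeletal muscle markers were called lower in LL37 than in control skin and higher in LL37 + RAPA than in LL37 skin, and 5 were still called below control with rapamycin. All 4 adipocyte markers were likewise called lower with LL37 and higher with rapamycin added. Of 4 tested T cell markers 1 was called higher with LL37 and 2 lower with rapamycin, and of 7 dendritic cell markers 1 was called higher with LL37. Of 6 mast cell markers 1 was called, higher in LL37 + RAPA than in control skin. Of 6 fibroblast markers 1 was called lower with LL37, of 5 endothelial markers 2 were lower with LL37 and 2 higher with rapamycin, and of 5 keratinocyte markers 1 was higher with LL37. Without LL37 replicate 3 these counts differed in that 8 muscle markers were still below control with rapamycin and 1 dendritic cell marker was higher with rapamycin. Of the fibroblast markers 1 was then also higher with LL37 and 1 higher with rapamycin. In these fits 12.8% of all tested genes were called lower with LL37 and 8.88% higher with rapamycin added. The share called lower in LL37 + RAPA than in control was 4.65%. Shares in these 3 directions are not given for the fits with all 12 libraries, so the marker counts from those fits are descriptions.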
